A study of Drosophila melanogaster with 16 samples.

Results

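RafGOF scrib tumours grew from clones in the larval eye-antennal disc of Drosophila that carried a gain-of-function Raf and had lost scrib. They were measured on 4 of the 16 arrays of the series, namely all arrays that the labels give to this genotype. The RNA of each array came from about 30 to 40 pooled discs of larvae kept at 25 °C. Tumour discs were taken at day 10 after egg laying, and the wild-type discs that served as the reference at day 5 to 6. The age of the discs and the tumour therefore cannot be told apart in any value against wild-type. The other 12 arrays hold tumours in which RasV12, an always-active Ras, was combined with scrib, baz or cdc42 mutation, 4 arrays each, and these are used below to show where RafGOF scrib differs. The labels do not say how clones were made, which promoter drove RafGOF, or how much of a dissected disc was mutant.

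Raf is the kinase directly below Ras. It activates MEK, which activates the MAP kinase ERK, and this cascade drives growth, survival and photoreceptor recruitment in the eye disc. Scribble is a scaffold of the basolateral domain of epithelial cells, and discs without it lose their polarity and layering. Clones that combine loss of scrib with active Ras signalling are a classic fly model of invasive growth, because the clones overgrow and the larva keeps feeding past the normal time of pupation. The wild-type eye-antennal disc is a single-layered epithelial sac from which the eye, the antenna and the head capsule form.

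On every array 11196 features had a log2 ratio, 1 unit being a 2-fold difference. A positive value is read as higher in the tumour, which is likely from the channel order of the labels but is not stated. If the ratio runs the other way, every higher and lower below changes places at the same size. All 4 RafGOF scrib arrays had tumour RNA in Cy3 and wild-type RNA in Cy5, so a dye effect of a feature is part of its value. Replicates 1 and 2 held the same value for 10644 features (95.07%), where no other pair of arrays shared more than 0.1429%. They were averaged and counted as 1 replicate, which gives n = 3 for RafGOF scrib and 15 replicates in the series. The labels call the arrays biological replicates. P-values measure the spread between replicates of a genotype, pooled over the 4 genotypes, so the RasV12 arrays add to the error of each RafGOF scrib test. Wild-type discs were measured only as the denominator of each ratio. The labels do not say whether 1 wild-type RNA served all arrays, and if it did, the tests leave out the spread between wild-type discs.

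The 3 replicates were not centred on 0. Their medians over all features were 0.47 for the averaged pair, 0.11 for replicate 3 and 0.32 for replicate 4. On the averaged pair 81.8% of the features lay above 0, against 60.9% on replicate 3 and 87.8% on replicate 4. The pair also had the widest spread over features (SD 0.66, against 0.51 and 0.43). It held 1927 features of at least 2-fold, where replicate 3 held 613 and replicate 4 held 485. The median of the mean log2 ratio over all features was 0.29, and values relative to this shift are given below as centred values.

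Across features, which are not independent replicates, the averaged pair correlated with replicate 3 at r = 0.46 and with replicate 4 at r = 0.38, while replicates 3 and 4 correlated at r = 0.59. The array closest to the averaged pair was RasV12 scrib replicate 1 (r = 0.64), not one of its own genotype. In RasV12 scrib replicates 1-2 and 3-4 correlated at r = 0.77 and 0.81, against 0.45 to 0.51 across these pairs. In RasV12 cdc42 the values were 0.80 and 0.81, against 0.20 to 0.44. RasV12 baz did not split this way (0.66 and 0.28). The main fit took all replicates as independent, so counts with these pairs as random blocks are also given. All of these arrays are ratios to wild-type RNA, and whether that RNA was shared is not known, so these correlations are descriptions. Replicate 3 had the lowest median, and the averaged pair stood apart in spread and correlation, so the number of features called in each comparison is also given without the pair.

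**Figure D1:**
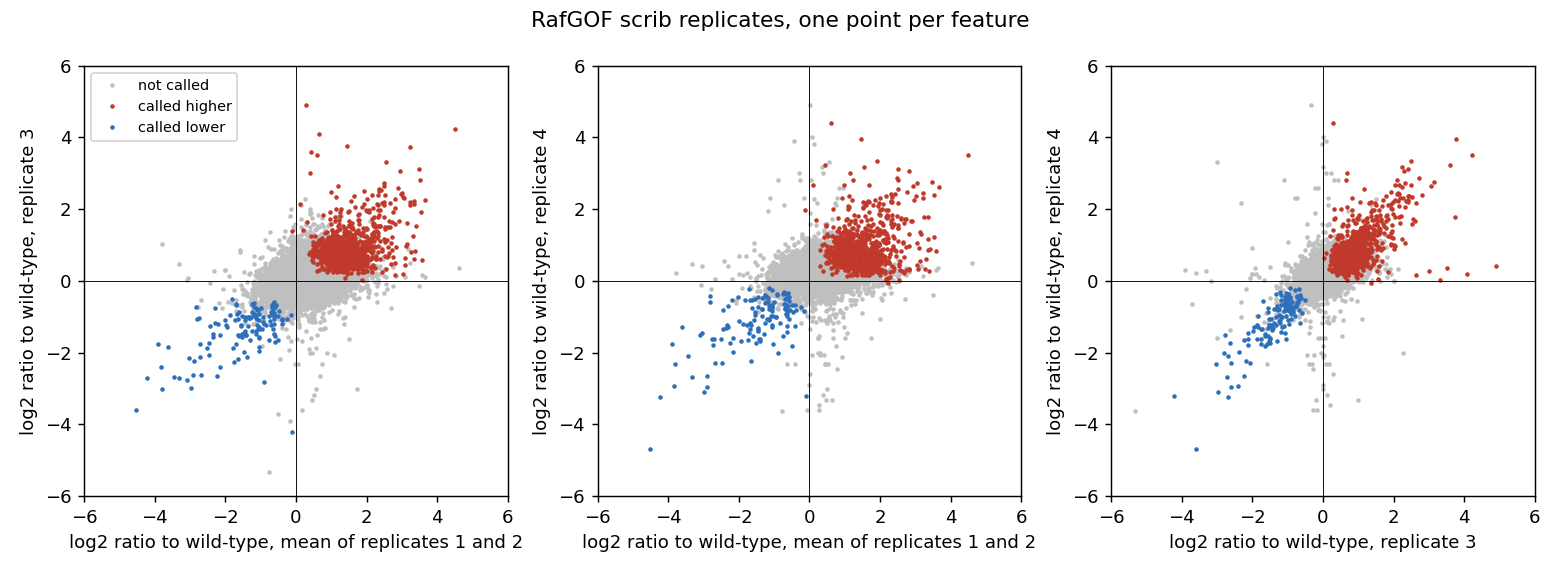
Log2 ratio to wild-type of each feature in the averaged replicates 1 and 2, in replicate 3 and in replicate 4 of RafGOF scrib, plotted against each other in 3 panels. Features that passed the test are red when higher and blue when lower, and the cloud of replicates 3 and 4 (r = 0.59) is tighter than those with the averaged pair (r = 0.46 and 0.38).

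In RafGOF scrib tumours 1016 features differed from wild-type, 9.07% of the 11196 tested, at an adjusted p under 0.05 (limma with Benjamini-Hochberg adjustment, n = 3). Of these 883 were higher (7.89%) and 133 lower (1.19%). In pooled tissue, fewer cells of a type and less RNA per cell cannot be told apart. With each array centred on its median, 595 features were called (5.31%), 303 higher (2.71%) and 292 lower (2.61%), so the surplus of higher features depended on the zero of the arrays. All 303 higher and 133 of the lower centred calls were also called on the deposited scale. The count was 531 (4.74%) with a dye term estimated from the swapped arrays of other genotypes, 409 higher (3.65%) and 122 lower (1.09%). It was 260 without the averaged pair, 631 without replicate 3 and 422 with replicates 1-2 and 3-4 as random blocks. A fit of the RafGOF scrib arrays alone called 741 features, of which 633 were among the 1016. In the deposited, centred and dye-corrected fits alike, 258 features were called higher and 100 lower.

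Of the 1016 called features 485 were at least 2-fold from wild-type, which is 4.33% of all features. They were 400 higher (3.57% of all features) and 85 lower ones (0.759%). At least 4-fold changes were called for 49 higher and 21 lower features, and a log2 ratio of 3 or more in size for 3 higher and 5 lower ones. All 3 replicates had the same sign for 1014 of the 1016 calls, whereas 6223 of all features had it. Calls were made on the mean of these same replicates, which favours a shared sign, so this is a description. On every one of the 3 replicates 158 features were at least 2-fold higher and 49 at least 2-fold lower. With centred arrays these numbers were 84 and 82.

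**Figure D2:**
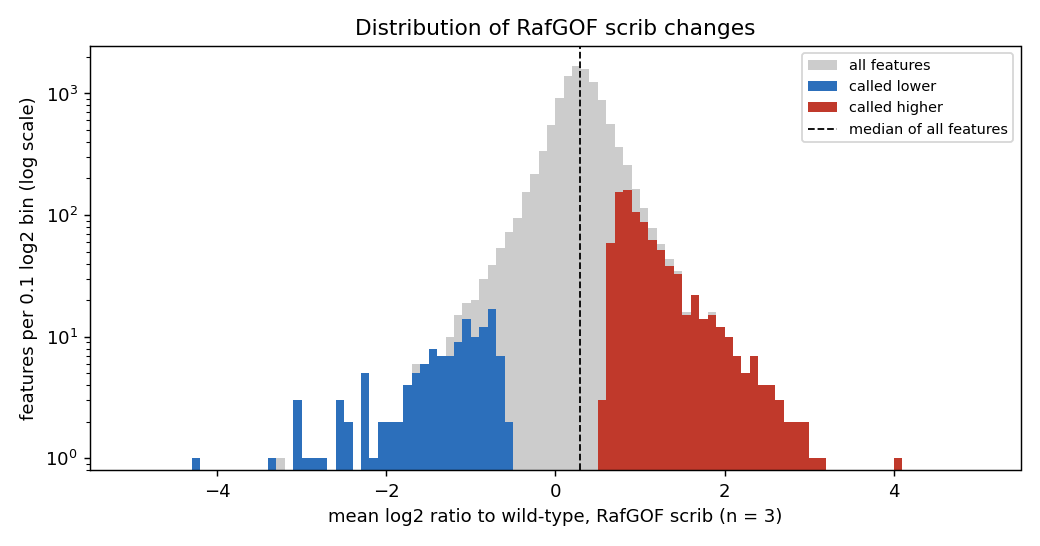
Number of features per 0.1 of the mean log2 ratio to wild-type in RafGOF scrib (n = 3), on a log scale, with called features in red (883 higher) and blue (133 lower). The dashed line is the median of all features at 0.29, and beyond a size of 3 there were 5 called lower and 3 called higher features.

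The replicates disagreed on a minority of features. The highest and the lowest replicate lay more than 2 log2 units apart in 213 features, 52 of which were called. In 17 features, none of them called, 1 replicate was at least 2-fold higher and another at least 2-fold lower. The averaged pair was the lone replicate in sign in 8 of these, replicate 3 in 4 and replicate 4 in 5. Of 71 features with a mean of at least 4-fold, 1 was not called. It had the third lowest mean of all features (-3.24, limma adjusted p = 0.0545), from -0.77, -5.32 and -3.63 on the averaged pair, replicate 3 and replicate 4.

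The largest changes belonged to features known here by identifier alone. FBgn0033592 had log2 ratios of 4.49 on the averaged pair, 4.22 on replicate 3 and 3.51 on replicate 4. All 3 were high, and the mean was 4.07 ± 0.46 (SE of the fit, 16.9-fold, adjusted p = 7.70e-06). FBgn0035049 stood at 3.48, 3.13 and 2.77, with a mean of 3.13 ± 0.32 (8.73-fold, adjusted p = 2.27e-06). Both features were also above wild-type in the RasV12 tumours, where their genotype means ran from 3.66 to 4.72 and from 3.24 to 4.49. The differences between RafGOF scrib and the mean of the RasV12 genotypes were 0.02 ± 0.51 and -0.86 ± 0.35, and neither passed the test (limma adjusted p = 0.995 and 0.369).

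FBgn0001254 was the most strongly lowered feature, at -4.53, -3.61 and -4.70 on the 3 replicates. Its mean of -4.28 ± 0.30 is a 19.4-fold difference (limma adjusted p = 8.29e-08). It was lower still in RasV12 scrib (-5.78) and RasV12 baz (-5.16), and less low in RasV12 cdc42 (-2.13). It was higher in RafGOF scrib than in RasV12 scrib by 1.51 ± 0.40 on the log2 scale (adjusted p = 0.0439). Against the mean of the RasV12 genotypes the difference was 0.08 ± 0.34 (adjusted p = 0.971). FBgn0034462 stood at -4.23, -2.70 and -3.22, with a mean of -3.39 ± 0.27 (10.5-fold, adjusted p = 1.37e-07). Its means in RasV12 scrib, RasV12 baz and RasV12 cdc42 were -4.29, -2.83 and -2.49. The difference from the mean of these genotypes was -0.18 ± 0.30 (limma adjusted p = 0.908). The 4 features with the largest changes passed the test against wild-type in each of the 29 other settings tried, with the same sign.

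Gene symbols could be given to 71 features through an NCBI gene table, and the account of named genes is limited to these. Of the 71 genes 2 were called higher and none lower (2.82%, against 9.07% of all features). Their median log2 ratio was 0.23, where that of all features was 0.29. All 3 replicates lay above 0 for 27 genes and below 0 for 5, and 39 had mixed signs. Of all features 50.6% lay above 0 on all 3 replicates and 4.94% below. With centred arrays the mean was above 0 for 28 genes and below 0 for 43, where on the deposited scale it was above 0 for 57 and below 0 for 14. None of the engineered genes was matched to a feature by name, so RafGOF and the loss of scrib could not be checked here. Whether a feature given by identifier alone is an engineered gene was not checked. A difference between genotypes in such a feature may therefore be part of the engineered change. The defining markers of the disc were not matched either, which leaves the labelled tissue unchecked.

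The 2 called genes act on chromosomes and DNA synthesis. Ts encodes thymidylate synthase, the enzyme that makes the thymidine nucleotide needed for DNA replication. Its log2 ratios were 1.06 on the averaged pair, 1.31 on replicate 3 and 1.35 on replicate 4. All were more than 2-fold above wild-type and close together, and the mean was 1.24 ± 0.22 (SE of the fit, 2.36-fold, limma adjusted p = 0.000942). With centred arrays it was 0.94 (adjusted p = 0.01055) and with the dye term 1.24 (adjusted p = 0.00746). Ts was called in each of the 29 other settings, with values from 0.94 to 1.33.

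Mau2 encodes the partner of Nipped-B in loading cohesin onto chromosomes. It rose, at 1.18, 0.74 and 0.90 on the 3 replicates, a mean of 0.94 ± 0.24 (1.92-fold, limma adjusted p = 0.0168). The call was less firm than that of Ts. It was lost in 7 of 29 settings, among them centred arrays (0.64, adjusted p = 0.114), the dye term (0.66, adjusted p = 0.162) and the fits without the averaged pair (0.82, adjusted p = 0.196) or without replicate 4 (0.96, adjusted p = 0.0638). Su(var)205, the heterochromatin protein HP1a, had a mean of 0.10, with values of 0.30, -0.04 and 0.04.

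**Figure D3:**
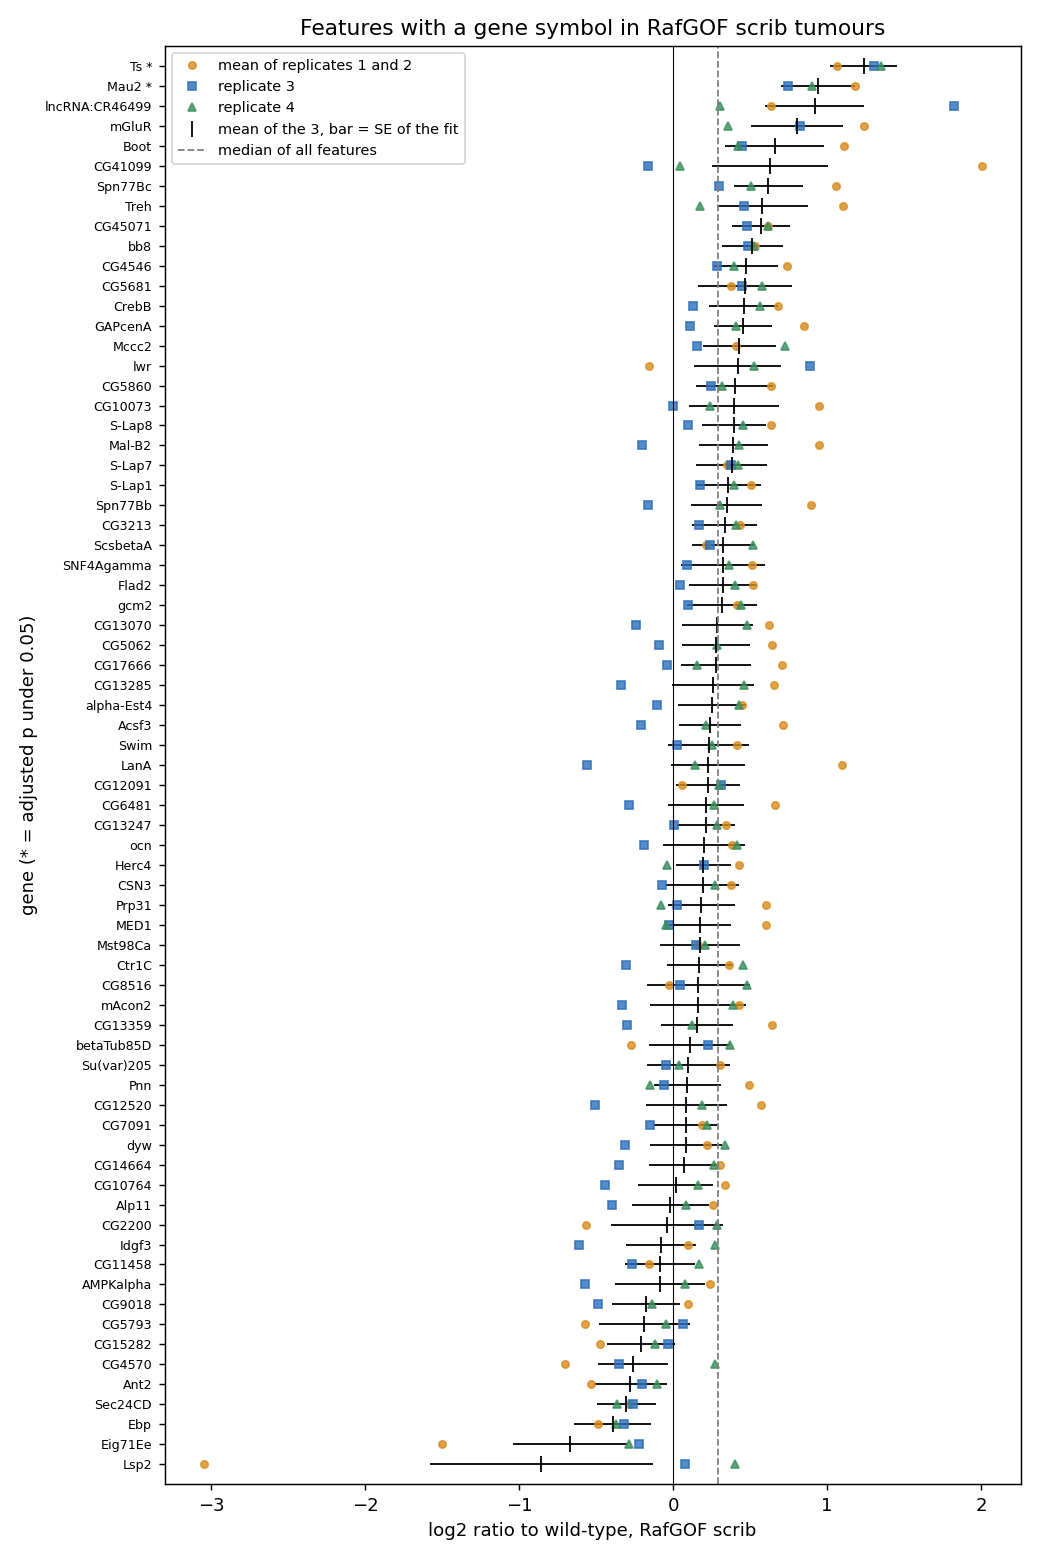
Log2 ratio to wild-type of the 71 features with a gene symbol in RafGOF scrib, with a symbol per replicate, the mean of the 3 as a tick and the SE of the fit as a bar. Ts and Mau2, marked with an asterisk, passed the test, and for Lsp2, Eig71Ee and CG41099 the averaged replicates 1 and 2 lie far from the other replicates.

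None of the secreted and larval genes passed the test. Lsp2 encodes a larval serum protein that the fat body makes and stores, and it was the named gene with the lowest mean. The averaged pair stood at -3.05, whereas replicates 3 and 4 stood at 0.08 and 0.40, and the mean of -0.85 had an adjusted p of 0.440 (limma). Eig71Ee, an ecdysone-induced gene known from the late larval salivary gland, showed the same split at -1.50 against -0.22 and -0.28 (adjusted p = 0.255). In both genes the low mean came from the averaged pair. Lsp2 was the only matched member of the fat body markers and Eig71Ee of the salivary gland markers, and their part in other results was not tested.

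LanA, the laminin alpha chain of basement membranes, ran from -0.56 on replicate 3 to 1.09 on the averaged pair, with a mean of 0.23 (limma adjusted p = 0.542). Idgf3, a chitinase-like imaginal disc growth factor, had 0.10, -0.61 and 0.27. Swim, which binds the Wingless ligand outside cells, had 0.41, 0.02 and 0.26. All 3 straddled or stayed near the wild-type level. The serpin genes Spn77Bb and Spn77Bc, which encode protease inhibitors, had means of 0.35 (adjusted p = 0.331) and 0.62 (adjusted p = 0.0829), and Spn77Bc lay above 0 on all 3 replicates.

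None of 13 genes of metabolism and its control passed, and their means ran from -0.28 to 0.58 with a median of 0.26. Treh encodes trehalase, which splits the blood sugar trehalose, and it had 1.11, 0.46 and 0.17, a mean of 0.58 (limma adjusted p = 0.221). AMPKalpha and SNF4Agamma, subunits of the energy-sensing kinase AMPK, had means of -0.08 and 0.32. ScsbetaA (0.32), a subunit of succinyl-CoA synthetase, and mAcon2 (0.16), an aconitase, belong to the citric acid cycle. Ant2, a mitochondrial adenine nucleotide carrier, lay below 0 on each replicate at -0.53, -0.20 and -0.10 (adjusted p = 0.443). The median of this group was close to the 0.29 of all features.

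None of 8 genes of gene expression and protein modification passed, with means from 0.09 to 0.46. CrebB, a cyclic AMP-responsive transcription factor, had the highest mean of them at 0.46 (0.68, 0.13 and 0.56, limma adjusted p = 0.198). MED1 (0.18), a Mediator subunit, and Prp31 (0.18), a spliceosome component, were higher on the averaged pair, at 0.60 and 0.61, than on replicates 3 and 4, where they ran from -0.08 to 0.02. The reverse held for lwr, the fly Ubc9 gene of the SUMO pathway, at -0.16 against 0.89 and 0.53 (adjusted p = 0.338). CSN3, a COP9 signalosome subunit, had a mean of 0.19 and the ubiquitin ligase gene Herc4 one of 0.20.

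The 8 genes known from the testis or male reproductive tract had a median of 0.28, and none passed. The spread between replicates was small for bb8 (0.53, 0.49 and 0.52, limma adjusted p = 0.106) and for Mst98Ca (0.16, 0.15 and 0.20, adjusted p = 0.662). The sperm leucyl aminopeptidase genes S-Lap1, S-Lap7 and S-Lap8 had means of 0.36, 0.38 and 0.40, each with all replicates above 0. Ebp, an ejaculatory bulb protein gene, was below 0 on each replicate at -0.49, -0.32 and -0.37 (adjusted p = 0.316). Of these genes Ebp was thus the 1 that lay below wild-type throughout, though not past the test.

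Genes of membrane traffic and receptors also missed the threshold. Sec24CD, a COPII coat component, lay at -0.29, -0.26 and -0.36, narrowly spread below 0 (mean -0.30, limma adjusted p = 0.315). Relative to the array medians it stood at -0.60, with an adjusted p of 0.0524. mGluR, the metabotropic glutamate receptor, stood at 1.24, 0.82 and 0.36 (mean 0.81, adjusted p = 0.0934). GAPcenA, which encodes a Rab GTPase-activating protein, stood at 0.85, 0.11 and 0.41 (adjusted p = 0.130).

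Of 29 further genes, most of them uncharacterised, none passed either, and their median was 0.22. The non-coding RNA lncRNA:CR46499 had the highest mean at 0.92, but replicate 3 at 1.83 stood above 0.63 and 0.30 (limma adjusted p = 0.0767). CG45071 was tight at 0.61, 0.48 and 0.62, with a mean of 0.57 and the lowest adjusted p among the named genes that missed the threshold (0.0628). CG41099 rested on the averaged pair, at 2.004 against -0.16 and 0.05 (mean 0.63, adjusted p = 0.289).

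RafGOF scrib was next set against RasV12 scrib, the tumour that shares its loss of scrib and differs in the oncogene. Dye differed too, since RasV12 scrib replicates 1 and 3 had tumour RNA in Cy5 and every RafGOF scrib array had it in Cy3. Between RafGOF scrib and RasV12 scrib 366 features differed, 3.27% of those tested (limma adjusted p under 0.05, n = 3 against 4). That fit took the replicates as independent, and with the random blocks 14 features differed. Of the 366 features 310 were higher in RafGOF scrib (2.77%) and 56 lower (0.5%). The replicates did not overlap in 352 of them, a separation that 15.3% of all features showed. In 205 of the called features the mean lay above wild-type in RafGOF scrib and below it in RasV12 scrib, and in 6 the other way round. In 86 both genotypes lay below wild-type, and in 69 both above. The signs were opposite with each mean at least 2-fold from wild-type in 2 features.

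This count depended on the scale and the arrays. With centred arrays it was 225 (2.01%), 127 higher (1.13%) and 98 lower (0.875%), and with quantile normalization 139, 77 higher and 62 lower. It was 132 (1.18%) with the dye term, 91 higher (0.813%) and 41 lower (0.366%). With tumour RNA in Cy3 alone it was 117, 83 higher and 34 lower. It was 298 without the averaged pair (220 higher and 78 lower), 91 without RafGOF scrib replicate 3, 59 without RafGOF scrib replicate 4, 226 without RasV12 scrib replicate 1 and 14 with the random blocks. Deviations of replicates with the same number correlated at r = 0.28, 0.23 and 0.13 across features in these genotypes, and whether the numbers mark pairs was not tested. With the replicate number as a block the count was 405 over all genotypes and 208 in a fit of these genotypes alone.

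Ts was higher in RafGOF scrib than in RasV12 scrib. In RasV12 scrib its log2 ratios were -0.33, -0.74, -0.53 and 0.14, all below the lowest RafGOF scrib replicate at 1.06. The difference was 1.60 ± 0.29 (SE of the fit, 3.04-fold, limma adjusted p = 0.00491). It ran from 1.36 to 1.77 over 29 other settings and was lost in 2, with tumour RNA in Cy3 alone (adjusted p = 0.0597) and with the random blocks (adjusted p = 0.111). In RasV12 baz Ts lay between 0.25 and 1.40, which overlaps RafGOF scrib, and in RasV12 cdc42 between 0.05 and 0.36.

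CG12520, an uncharacterised gene, was lower in RafGOF scrib. It stood at 0.57, -0.50 and 0.19 there and at 1.41, 2.26, 1.89 and 2.30 in RasV12 scrib, with no overlap. The difference was -1.88 ± 0.35 (3.68-fold, limma adjusted p = 0.00612), and it missed the threshold in 2 settings, without RafGOF scrib replicate 3 (adjusted p = 0.0539) and with the random blocks (adjusted p = 0.196). The gene was near wild-type in RafGOF scrib (mean 0.09) and above it in RasV12 scrib and RasV12 baz (1.97 and 1.60). In RasV12 cdc42 its mean was 0.34, with arrays from 0.06 to 0.87, which overlaps RafGOF scrib.

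Other named genes did not pass this contrast. Lsp2 stood at -4.40, -4.44, -4.36 and -2.49 in RasV12 scrib, and was higher in RafGOF scrib by 3.07 ± 0.95 (limma adjusted p = 0.0805). Eig71Ee differed by 1.52 ± 0.49 (adjusted p = 0.0925) and lwr by 1.12 ± 0.37 (adjusted p = 0.101). For Lsp2 and Eig71Ee the averaged RafGOF scrib pair fell within the range of RasV12 scrib, and replicates 3 and 4 lay above it. Mau2 stood at 0.22, 0.77, 1.17 and 0.68 in RasV12 scrib, overlapping RafGOF scrib, with a difference of 0.23 ± 0.32 (adjusted p = 0.754).

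**Figure D4:**
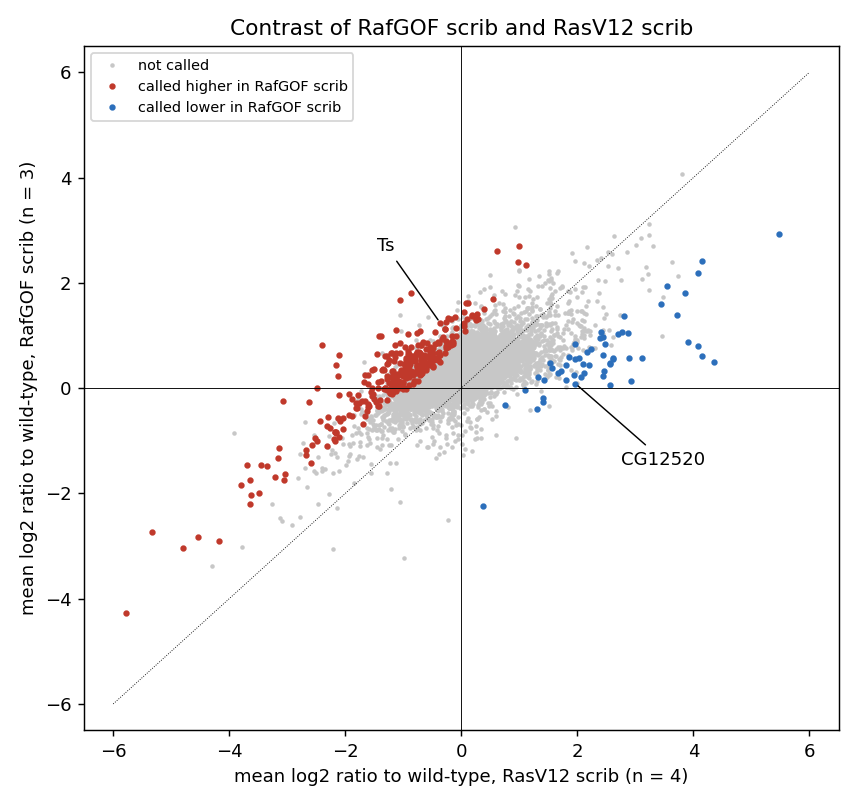
Mean log2 ratio to wild-type in RafGOF scrib (n = 3) against that in RasV12 scrib (n = 4), a point per feature, with features called in the contrast in red (310 higher in RafGOF scrib) or blue (56 lower). The dotted line marks equal values, and both axes rest on wild-type reference RNA. Ts lies in the upper group and CG12520 in the lower one.

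Among features without a symbol, FBgn0000071 separated these tumours most in the higher direction. It stood at 0.97, 0.66 and 0.81 in RafGOF scrib and at -1.91, -3.06, -2.74 and -1.92 in RasV12 scrib, a difference of 3.22 ± 0.38 (9.32-fold, limma adjusted p = 8.75e-05). FBgn0036433 was near wild-type in RafGOF scrib (-0.34, -0.40 and 0.03) and low in RasV12 scrib (mean -3.08), a difference of 2.84 ± 0.30 (7.16-fold, adjusted p = 3.71e-05). In both cases RasV12 scrib was the farther of these tumours from wild-type. In RasV12 baz and RasV12 cdc42 the means were 1.59 and 1.60 for FBgn0000071, above RafGOF scrib, and -0.57 and -1.13 for FBgn0036433. Against the mean of the RasV12 genotypes FBgn0000071 did not pass (difference 0.55, limma adjusted p = 0.566), while FBgn0036433 did (1.36, adjusted p = 0.0124).

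RasV12 scrib was the farther from wild-type in the lower features too. FBgn0003205 stood at 0.94, 0.39 and 0.47 in RafGOF scrib and at 3.01, 4.22, 4.37 and 4.97 in RasV12 scrib, a difference of -3.54 ± 0.42 (11.6-fold, limma adjusted p = 8.75e-05). Whether it is an engineered gene was not checked, so this difference may be part of the engineered change. FBgn0022073 stood at 1.38, -1 and 1.10 against a mean of 4.35, a difference of -3.86 ± 0.77 (14.5-fold, adjusted p = 0.0102). Its value on replicate 3 was exactly -1, the log2 of a ratio of small integers. Signal levels were not used, so whether this feature lay near the detection floor was not tested. The last call was lost in 3 of 29 settings, among them the fit without RafGOF scrib replicate 3 (adjusted p = 0.0758). FBgn0022073 had means of 1.47 in RasV12 baz and 2.90 in RasV12 cdc42.

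Against the mean of the 3 RasV12 genotypes, 84 features differed in RafGOF scrib (0.75% of those tested), 63 higher (0.563%) and 21 lower (0.188%) (limma adjusted p under 0.05, n = 3 against 12). The RafGOF scrib replicates lay outside the range of all 12 RasV12 arrays in 52 of them, against 1.71% of all features. With centred arrays 94 were called (0.84%), 52 higher (0.464%) and 42 lower (0.375%), and with quantile normalization 255, 139 higher and 116 lower. The count was 49 (0.438%) with the dye term, 31 higher (0.277%) and 18 lower (0.161%), and 31 with tumour RNA in Cy3 alone (20 higher and 11 lower). It was 30 without the averaged pair, 25 without replicate 3, 34 without replicate 4 and 18 with the random blocks.

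None of the 71 named genes passed this contrast. Ts was nearest, with a difference of 1.03 ± 0.24 on the log2 scale (limma adjusted p = 0.0503), followed by CG12520 with -1.21 ± 0.29 (adjusted p = 0.0580). FBgn0036605 differed most in the higher direction. It stood at 2.34, 2.51 and 2.34 in RafGOF scrib, at 0.98 on average in RasV12 scrib, and below wild-type in RasV12 baz (-1.31) and RasV12 cdc42 (-1.88). The difference was 3.13 ± 0.31 (adjusted p = 1.35e-05). FBgn0037000 stood at 2.30, 1.54 and 1.58, while its means in RasV12 scrib, RasV12 baz and RasV12 cdc42 were -0.87, -0.38 and -0.68, a difference of 2.45 ± 0.26 (adjusted p = 2.99e-05). Both were raised in RafGOF scrib and lay at or below 1.38 on every RasV12 array.

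FBgn0003205 was lower in RafGOF scrib also against this mean, a difference of -2.91 ± 0.35 (limma adjusted p = 0.000138). Its means were 3.68 in RasV12 baz and 2.70 in RasV12 cdc42. It ran from 2.42 to 4.97 on the RasV12 arrays. Whether it is an engineered gene was not checked, so its difference may be part of the engineered change. FBgn0010039 stood at 0.78, 1.38 and 1.13 in RafGOF scrib and had means of 2.54, 4.38 and 3.94 in RasV12 scrib, RasV12 baz and RasV12 cdc42. The difference of -2.53 ± 0.47 had an adjusted p of 0.0103, and it was lost in 6 of 28 settings, among them the fits without the averaged pair, replicate 3 or replicate 4 (adjusted p = 0.105, 0.0555 and 0.0584). The calls of FBgn0036605, FBgn0037000 and FBgn0003205 were kept in all 28.

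**Figure D5:**
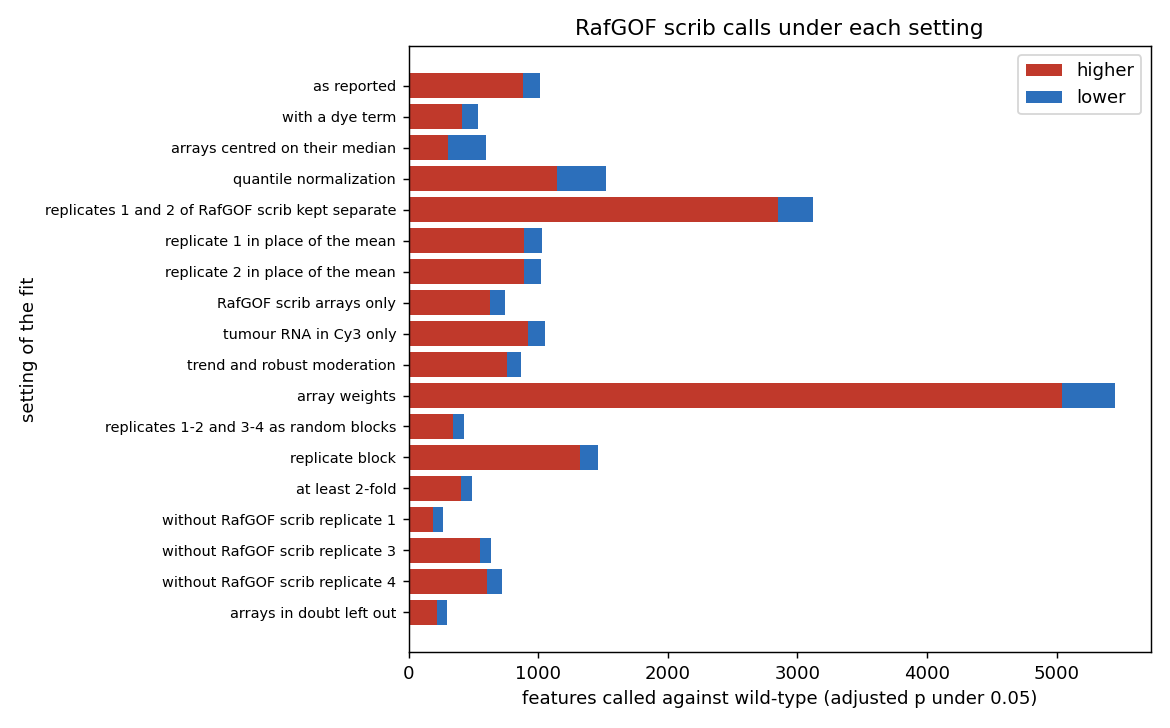
Number of features called in RafGOF scrib against wild-type, higher in red and lower in blue, in the fit as reported (1016) and in each other setting except those that leave out a RasV12 array. The count runs from 260 without the averaged pair, shown as replicate 1, to 5453 with array weights, and higher calls outnumber lower ones in every bar, by 303 to 292 with centred arrays.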

How the data were processed

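Total RNA was taken with TRIzol from pooled discs, amplified and labelled with random hexamers, and hybridised on custom 2-colour arrays, per the labels' protocols. The authors deposited log2 ratios for 11196 features on 16 arrays, with no missing value. Scanning, background correction, normalization and spot averaging are not given in the sources used here, and signal levels were not used, so the number of arrays limits the precision. The log base was inferred: among 409 repeated values, 36.7% were log2 values of fractions built from integers up to 9 (tolerance 1e-05), and 0% natural or decimal logarithms of them. No sign was changed, since every pair of arrays correlated above 0 (r of 0.07 or more).

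Replicates 1 and 2 of RafGOF scrib were averaged. limma 3.58.1 (R 4.3.3) fitted a mean per genotype to 15 replicates, with empirical Bayes moderation. The RafGOF scrib mean was tested against 0, and contrasts set it against RasV12 scrib and against the mean of the RasV12 genotypes. P-values are two-sided and adjusted by Benjamini-Hochberg over all features. No dye term was used, because RafGOF scrib had no swapped array and such a term would carry in a difference measured in other genotypes. The fit was tested on simulated data. Figures used Python 3.11.15 and matplotlib 3.10.9.

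Identifiers were matched to symbols and synonyms in an NCBI table of the Release 6 assembly: 71 features got 1 symbol, 1 got several and 11124 got none. Of 524 genes in 36 lists, 5 were matched (Ts, Idgf3, LanA, Lsp2 and Eig71Ee), each from a different list, so they are described as single genes. Genes to be named were those with a symbol that passed the test with the same sign on all replicates (in contrasts, without overlap), list members, and at most 2 unnamed features per direction, by size. With few symbols, the other genes in the text, grouped by textbook role, were chosen after their values were seen. The comparison, lists and roles were chosen with earlier results of these data known. Alternatives were a dye term, centring, quantile normalization, other uses of replicates 1 and 2, fewer arrays, other variance models, blocks, a 2-fold minimum and leaving out each replicate.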

Additional observations from a re-analysis of the deposited data

Results flagged for a closer look

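The effect against wild-type differed by a test of the difference between RafGOF scrib and RasV12 scrib in 366 features, and between RafGOF scrib and the mean of the RasV12 genotypes in 84 (limma adjusted p under 0.05). Against RasV12 scrib these include Ts (1.60), CG12520 (-1.88), FBgn0000071 (3.22), FBgn0036433 (2.84), FBgn0022073 (-3.86) and FBgn0003205 (-3.54), as log2 differences. Against the mean of the RasV12 genotypes they include FBgn0036605 (3.13), FBgn0037000 (2.45), FBgn0003205 (-2.91) and FBgn0010039 (-2.53). Whether a feature given here by identifier is an engineered gene was not checked.

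A lone array stood far from the others of its group in 2 of 42 groups of 4 RasV12 arrays tested for Ts, Mau2, CG12520 and the features given by identifier. Ts was at 0.36 on RasV12 cdc42 replicate 1, where the other arrays lay between 0.05 and 0.07, and FBgn0000071 was at 0.88 on RasV12 baz replicate 3, where the others lay between 1.76 and 1.93. Chance gives about 5% of such groups. With n = 3, RafGOF scrib itself was not tested this way.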

How the results depend on the processing

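Counts against wild-type were 1016 as reported, 531 with a dye term, 595 with centred arrays, 3119 with replicates 1 and 2 kept separate, 5453 with array weights, 422 with random blocks, 485 at a 2-fold minimum, and 297 without the arrays in doubt (the averaged pair and RasV12 baz replicate 4, a choice made after seeing the data). Leaving out 1 replicate gave 260 to 1123. Higher calls were 86.9% as reported, 50.9% with centred arrays, 77% with a dye term and 75.1% with quantile normalization (1520 calls).

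Against RasV12 scrib the count of 366 became 132 with a dye term, 225 centred, 139 with quantile normalization, 847 with the pair separate, 117 with Cy3 alone, 2879 with array weights, 14 with random blocks and 59 to 463 without 1 replicate. Against the RasV12 mean the count of 84 became 49 with a dye term, 255 with quantile normalization, 314 with the pair separate, 31 with Cy3 alone, 1584 with array weights, 18 with random blocks, 34 without the arrays in doubt and 25 to 96 without 1 replicate.

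With the replicate number as a block over all genotypes the counts were 1460, 405 and 74, and with the block in the scrib genotypes alone, added after seeing the data, 208 against RasV12 scrib. Deviations of replicates with the same number correlated at r from -0.35 to -0.07 between RafGOF scrib and RasV12 baz. Between RafGOF scrib and RasV12 cdc42 the values were 0.22, 0.29 and 0.04. The called values of Ts, Mau2, CG12520 and the features given by identifier, each in the comparison it was chosen for, kept their sign in every setting run.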

Other observations

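Replicates 1 and 2 of RafGOF scrib correlated at r = 0.998 and differed in 552 features. In these the median size of the difference was 0.00379 log2 units, 56 differed by over 0.1 and 2 by over 1, with a largest difference of 3.14. Replicate 1 was the higher of the pair in 294 of the 552. Of the 552 features 10.7% were called against wild-type, beside 9.07% of all features. Replacing the mean of the pair by replicate 1 or by replicate 2 gave 1024 or 1019 calls.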
